A study of Drosophila melanogaster with 2 samples.

Results

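The genes described here are Chro, Cp190, BEAF-32, Dref and pzg, which encode housekeeping boundary proteins of Drosophila melanogaster. These 5 genes were chosen by name from the 13945 protein-coding genes annotated on the major chromosome arms, and their binding by the zinc-finger protein CG30431 was read from deposited peak lists. The flies carried a stable transgene for CG30431 with a C-terminal GFP fusion, whose promoter is not given in the sources used here. Chromatin of whole embryos, 0 to 24 h old and of pooled sex, was sheared and precipitated with an anti-GFP antibody (ChIP-seq). The series holds 1 group of 2 biological replicates each from its own biosample of a single fly line, so nothing below compares conditions and no test between groups could be made. Peak lists hold no expression values, so the tissue could not be checked against markers.

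Boundary proteins mark the borders between chromosome domains. In flies a group of them sits at the promoters of constitutively active genes, and in polytene chromosomes at the open interbands between condensed bands. BEAF-32 and DREF bind DNA directly at sequences that contain CGATA, BEAF-32 at clusters of that core and DREF at the DNA replication-related element (DRE), TATCGATA. Chromator (from Chro) is a chromodomain protein that forms a complex with Z4 (Putzig, from pzg), and CP190 is a cofactor that several insulator proteins recruit.

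All 5 genes carried a reproducible CG30431-GFP peak at a start. A reproducible peak is one of the 3314 that the authors kept after the irreproducible discovery rate (IDR) step, which weighs how consistently peaks rank between lists. Similar ranks in both replicates are not assured for each of them, and 3302 had an entry in both replicate lists. A reproducible peak counted as a promoter peak when a transcription start in the annotation was at most 500 bp from its summit. Such a peak was found for 12.8% of the 13945 genes, and 25.4% had a summit in the gene or within 2 kb of it. The genes were proposed with these peaks known, so the count of 5 is a description. Together they held 6 reproducible peaks, all 6 at promoters, because BEAF-32 had 2, each nearest to a different start. Over all protein-coding genes 0.997% had more than 1.

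Sequence is shown for the short stretches that separate the starts of Chro, Cp190, Dref and pzg from the start of the gene on the opposite strand, because the peaks lay on or beside these stretches. Some matches to known elements within 200 bp of a summit are not printed, among them CACTG at Chro and CGATA at pzg. Short sites in or crossing into transcribed sequence are added at Chro, Cp190 and Dref. Each is given 5′ to 3′ in the direction of the boundary protein gene, from the RefSeq Release 6 genome (dm6). Capitals mark CGATA or its reverse complement TATCG, the DRE, and CAGTG, the reverse complement of CACTG.
Chro, summit as last base, chr3L:22878878-22878907, minus strand: tagtttaaagcTATCGacaggcaatacact
Chro to Ssl1, chr3L:22878985-22879088, minus strand: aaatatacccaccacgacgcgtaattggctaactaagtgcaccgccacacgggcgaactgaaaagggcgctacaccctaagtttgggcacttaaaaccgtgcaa
Cp190 to CG4338, chr3R:15275242-15275521, minus strand: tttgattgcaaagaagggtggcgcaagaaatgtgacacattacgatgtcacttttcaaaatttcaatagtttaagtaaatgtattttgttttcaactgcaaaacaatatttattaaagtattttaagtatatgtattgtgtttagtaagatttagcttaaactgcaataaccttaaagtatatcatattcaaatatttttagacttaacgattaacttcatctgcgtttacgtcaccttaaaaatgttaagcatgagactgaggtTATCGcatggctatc
Cp190 start, chr3R:15275230-15275253, minus strand: cgcatggcTATCGATAgctgccga
Dref to RpL13, chr2L:9967230-9967312, minus strand: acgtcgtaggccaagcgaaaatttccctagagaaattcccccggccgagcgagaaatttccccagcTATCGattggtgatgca
Dref start, chr2L:9967214-9967237, minus strand: gtgatgcaatCAGTGttagcgaga
pzg to CG12974, chr3L:21285963-21286098, plus strand: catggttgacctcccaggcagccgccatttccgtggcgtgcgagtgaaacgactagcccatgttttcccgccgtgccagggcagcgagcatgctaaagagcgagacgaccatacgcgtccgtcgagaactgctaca

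The signal at these genes lay between 109 and 1484, at ranks 3 to 945 among promoter peaks. The signal value is the authors' own number for each peak, on a scale that is not stated, and it ran from 70.8 to 1800 in the reproducible set. Among the 1466 promoter peaks the median was 137, with quartiles of 96.6 and 224. Chro and Cp190 lay above the upper quartile, pzg just above the median, and Dref and both BEAF-32 peaks below the median but above the lower quartile.

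**Figure D1:**
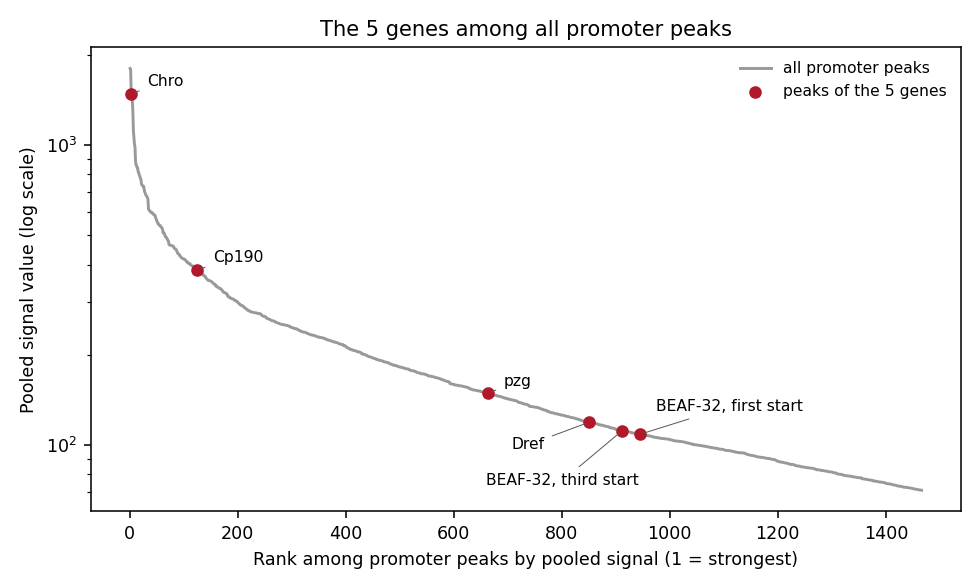
Pooled signal value (log scale) of all 1466 promoter peaks against their rank, with the 6 peaks of the 5 genes in red. Chro stands at rank 3 and Cp190 at rank 125, while pzg, Dref and the BEAF-32 peaks lie between ranks 663 and 945.

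Chro had the strongest peak of the group. The peak at Chro (FBgn0044324, minus strand, 22873702 to 22878984 on 3L) spanned 22878714 to 22879084 and had a pooled signal of 1484. Its value was 861 in replicate 1 and 622 in replicate 2 (741 ± 169, SD, n = 2), and its rank was 3 in replicate 1 and 4 in replicate 2. The replicate summits were 1 bp apart, the closest of the 6 peaks. Of the authors' values at promoter peaks, 99.9% were no higher than that at Chro.

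The Chro summit lay between the gene's starts rather than upstream of all of them. Chro has 5 annotated transcripts from 3 starts. The summit was 106 bp downstream of the most upstream start (Chro-RE) and 110 bp upstream of the next one (shared by 3 transcripts), inside the 5′ UTR of Chro-RE. The remaining start, that of Chro-RA, was 694 bp downstream of the summit. The start of Ssl1, which encodes a subunit of the general transcription factor TFIIH and is read in the opposite direction, lay 211 bp from the summit and 105 bp from the Chro-RE start. The printed stretch between Chro and Ssl1 fell in the outer part of the peak, and the peak ended just short of the Ssl1 start.

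Cp190 came next. The peak at Cp190 (FBgn0000283, minus strand, 15270432 to 15275241 on 3R) spanned 15275242 to 15275541, with a pooled signal of 384 at rank 194 of all reproducible peaks. Replicate 1 gave 240 (rank 156) and replicate 2 gave 148 (rank 242), or 194 ± 64.8 (SD, n = 2). In replicate 2 the region was listed as 2 separate entries, and the value of 148 belongs to the entry whose summit lay 43 bp from that of replicate 1. The entry of replicate 2 that holds the pooled summit had a value of 40.7 (rank 2365). Its own summit, at 15275545, lay beyond the end of the pooled peak. The replicate 2 value at this site thus depends on how entries are matched.

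The Cp190 summit was the only one of the 6 outside every annotated exon. It lay 146 bp upstream of the Cp190-RA start and 135 bp upstream of the start of CG4338 on the opposite strand, close to the middle of the 281 bp between them. The annotated canonical start, that of Cp190-RB, was 597 bp from the summit. The window around the Cp190 summit was also the richest in A and T, with 23.9% GC, against a median of 35.3% over all promoter peaks (quartiles 31.3% and 39.3%).

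**Figure D2:**
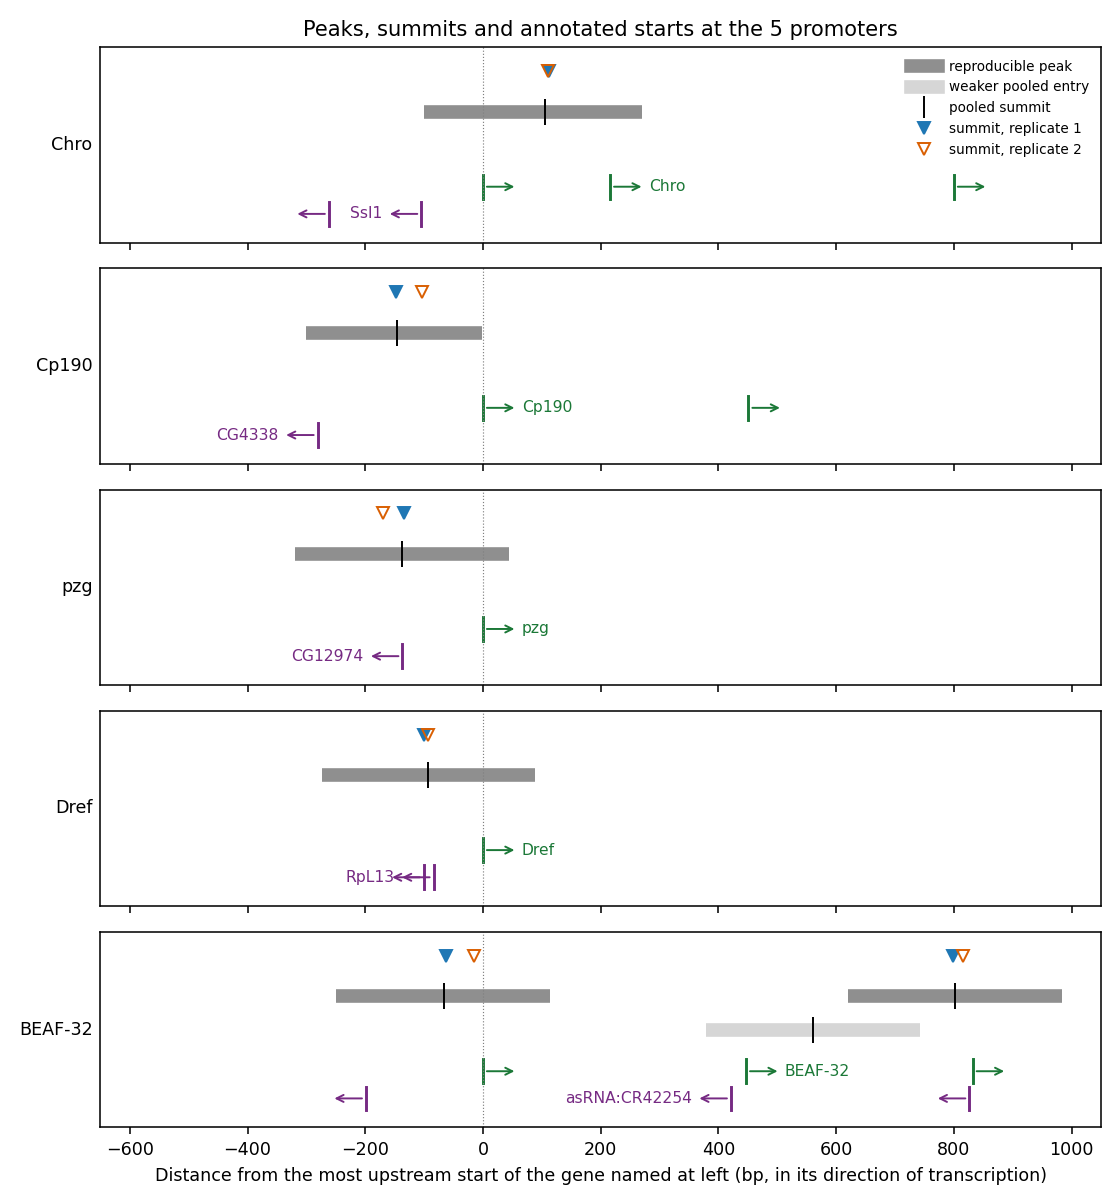
Peaks and annotated starts at the 5 genes, by distance (bp) from the most upstream start of each gene in its own direction; dark bars are reproducible peaks, the light bar a weaker pooled entry, vertical ticks pooled summits, and triangles the summits in each replicate. Green arrows are starts of the gene and purple arrows starts of its neighbours. At Cp190, pzg and Dref the summit lies at or between starts of opposite direction, and at Chro between 2 starts of the gene itself. At BEAF-32 separate peaks cover the first and the third start, each with a start of the antisense RNA asRNA:CR42254 nearby.

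The peak at pzg was of middling strength and differed between the replicates. The peak at pzg (FBgn0259785, plus strand, 21286099 to 21290310 on 3L) spanned 21285780 to 21286143 and had a pooled signal of 149 at rank 1217. Its value was 101 (rank 960) in replicate 1 and 48.2 (rank 1879) in replicate 2, or 74.4 ± 37.0 (SD, n = 2). The summit fell on the annotated first base of CG12974, a gene of the opposite strand, and 137 bp upstream of the single pzg start. The replicate summits were 35 bp apart.

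Dref shared its peak with a ribosomal protein gene. The peak at Dref (FBgn0015664, minus strand, 9964147 to 9967229 on 2L) spanned 9967140 to 9967503, with a pooled signal of 119 at rank 1683. Its value was 74.8 (rank 1493) in replicate 1 and 44.8 (rank 2088) in replicate 2, or 59.8 ± 21.3 (SD, n = 2). The summit lay 93 bp upstream of the Dref start but on the start of RpL13, which encodes a protein of the large ribosomal subunit. It was 9 bp downstream of the first annotated RpL13 start and 8 bp upstream of the next. Only 84 bp separate the Dref start from the nearest RpL13 start, so binding at the Dref and RpL13 starts cannot be told apart from these lists.

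BEAF-32 was the member with more than 1 peak. The gene (FBgn0015602, plus strand, 14770469 to 14772630 on 2R) has 3 transcripts from 3 starts. The peak at the third start (14771089 to 14771452, 30 bp upstream of the BEAF-32-RB start) had a pooled signal of 112 at rank 1828, and that at the first start (14770220 to 14770583, 67 bp upstream of the BEAF-32-RA start) had 109 at rank 1913. Their summits were 869 bp apart.

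The BEAF-32 peaks were close in pooled signal but not in the replicates. At the third start replicate 1 gave 64.1 (rank 1894) and replicate 2 gave 48.2 (rank 1882), or 56.2 ± 11.3 (SD, n = 2). At the first start replicate 1 gave 83.8 (rank 1274) and replicate 2 gave 29.2 (rank 3654), or 56.5 ± 38.6 (SD, n = 2). The first-start peak was thus the stronger of the pair in replicate 1 and the weaker in replicate 2. In replicate 2 it lay outside the 3314 strongest entries, the only one of the 6 peaks to do so in either replicate. It was also the only one of the 6 below the highest deposited −log10 q-value of 3.57 (3.11), a ceiling that 1879 reproducible peaks share.

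The middle start of BEAF-32 had a weaker entry. The pooled list held 2 entries in or within 2 kb of the 5 genes that were not in the reproducible set. At BEAF-32 an entry from 14770848 to 14771211 had a summit 114 bp downstream of the BEAF-32-RC start, a pooled signal of 63.6 and rank 3786 of 30000. The weakest reproducible peak had 70.8, a slightly higher value. It overlaps the interval of the third-start peak, whose summit is 241 bp away. Replicate 1 had its own entry there (38.4, rank 3746), but in replicate 2 no entry held this summit. Each of the 3 BEAF-32 starts therefore had a pooled entry nearby, of which 2 were reproducible. The middle entry had a −log10 q-value of 1.94. The pooled list includes background, and the share of all starts with a pooled entry nearby is not given here.

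The other weaker entry was upstream of pzg. It ran from 21284295 to 21284658, 1622 bp upstream of the pzg start and between exons of CG12974, with a pooled signal of 26.5 at rank 20104. Replicate 1 had 18.2 there (rank 16983) and replicate 2 had 14.7 (rank 17057), with summits 246 bp apart. With a −log10 q-value of 0.12 it lay in the background part of the list, whose lowest signal was 22.3. Chro, Cp190 and Dref had no other pooled entry, of any strength, in the gene or within 2 kb of it.

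**Figure D3:**
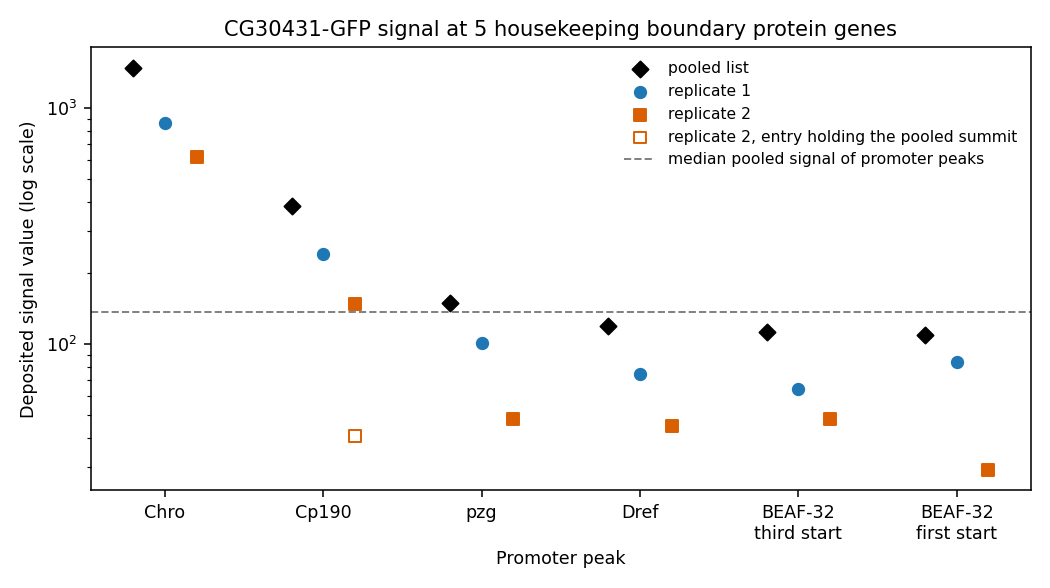
Deposited signal value (log scale) of the 6 promoter peaks in the pooled list, replicate 1 and replicate 2; the open square is the replicate 2 entry that holds the pooled Cp190 summit, and the dashed line is the median pooled signal of 137 over promoter peaks. Chro and Cp190 are highest in both replicates, and the other 4 peaks lie between 64.1 and 101 in replicate 1 and between 29.2 and 48.2 in replicate 2.

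The order of the peaks was the same in both replicates except at BEAF-32. Chro was first and Cp190 second in both, with values that overlapped neither each other nor those of any other peak, taking the stronger Cp190 entry of replicate 2. With the entry that holds the pooled summit, Cp190 would stand below pzg, Dref and the third start of BEAF-32 in replicate 2. The pzg peak came next after Cp190 in both replicates, and Dref was below pzg in both. The BEAF-32 peaks changed places: the first start was above Dref and the third start last in replicate 1, whereas in replicate 2 the third start was above Dref, level with pzg at 48.2, and the first start last. Every one of these peaks was higher in replicate 1, as most peaks were. Over the 3302 reproducible peaks with an entry in both lists the median ratio of replicate 1 to replicate 2 was 1.34, with a range from 0.937 to 1.96 between the 10th and 90th percentiles.

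Some members departed from that median ratio. The ratio was 1.38 at Chro and 1.33 at the third start of BEAF-32, both near the median. It was 1.67 at Dref. At Cp190 it was 1.62 with the stronger entry of replicate 2 and 5.89 with the entry that holds the pooled summit, which would be the highest of the 6 peaks. At pzg it was 2.09, higher than at 92.6% of peaks, and at the first start of BEAF-32 it was 2.87, higher than at 98.3%. Sequencing depth is unknown here, and its part in these differences was not tested.

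**Figure D4:**
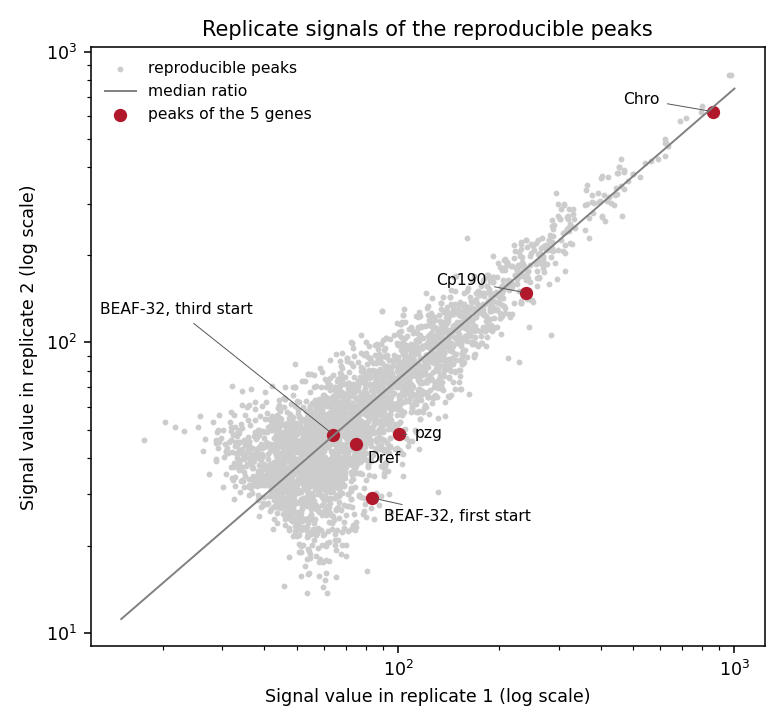
Signal value in replicate 2 against replicate 1 (both log scale) for the reproducible peaks (grey) and the 6 peaks of the 5 genes (red); the line is the median ratio of 1.34, and Cp190 is drawn with its stronger entry of replicate 2. Chro and the third start of BEAF-32 lie near the line, while pzg and the first start of BEAF-32 lie below it, with ratios of 2.09 and 2.87.

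All 6 peaks lay where starts of both strands are close together. Starts on both strands lay within 500 bp of the summit at 6 of the 6 peaks, and at 38.3% of all promoter peaks. At Chro, Cp190, pzg and Dref the start on the other strand was that of a protein-coding gene (4 of the 6 peaks, and 35.1% of promoter peaks). At BEAF-32 it was that of the antisense RNA asRNA:CR42254, which has starts 132 bp from the first-start summit and 24 bp from the third-start summit. With a window of 200 bp, chosen after these values were seen, 5 of the 6 peaks qualified, all but that of Chro, and 16.0% of promoter peaks did. Peak lists carry no strand, so the signal cannot be divided between the genes of a pair.

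The sequences at these summits differed from each other. The stretches between starts printed above ranged from 28.9% GC at Cp190 to 60.3% GC at pzg, with 51.0% at Chro and 51.8% at Dref. Within 100 bp of the summit the GC content was 38.8% at Chro, 46.8% at pzg and 41.8% at Dref. At BEAF-32 it was 35.3% at the third start and 29.9% at the first. Thus pzg and Dref lay above the upper quartile of promoter peaks, and Cp190 and the first start of BEAF-32 below the lower one.

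CACTG, a core of sequences that are frequent at CG30431-GFP sites, was present at BEAF-32 and Dref only. It was searched on both strands in windows of 201 bp centred on the summits, and it was picked in earlier work on these data. It lay in 3 of the 6 windows, in 45.3% of all promoter peak windows and in 36.9% of windows at 19252 protein-coding starts. The longer CACTGA, which contains it, lay in the same 3 windows, in 13.5% of promoter peak windows and in 10.8% of windows at starts. CACTGTG was in none of the 6 windows, against 8.59% of promoter peak windows. CACTGTGC, CACAGTGG, CACTGAGA and TACACTGA, of which CACTGTGC contains CACTGTG, CACAGTGG contains its reverse complement, and CACTGAGA and TACACTGA contain CACTGA, were also in none. They lay in 5.18%, 5.46%, 2.18% and 2.18% of promoter peak windows.

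In these windows the CACTG matches lay downstream of the BEAF-32 and Dref summits in the direction of the gene. At BEAF-32 they were 20 and 41 bp from the third-start summit and 8 bp from the first-start summit. At Dref the match was 97 bp away, in the transcribed first bases shown for the Dref start. The strongest members, Chro and Cp190, had no match within 100 bp. The nearest at Chro was 147 bp downstream of the summit, and Cp190 and pzg had none within 200 bp. Lack of a match was common among promoter peaks. Of the 25 strongest 12 had CACTG in the window, and of all promoter peaks 45.3% did.

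CGATA, the core bound by BEAF-32 and contained in the DRE, lay near 4 of the 6 summits. It lay in the windows of Chro, pzg, Dref and the third start of BEAF-32, in 32.9% of promoter peak windows and in 37.1% of windows at starts. At Chro it was 16 bp upstream of the summit, at pzg 40 bp upstream, at Dref 78 bp downstream and at the third start of BEAF-32 62 bp downstream. With 50 bp on each side 2 windows held it, those of Chro and pzg, with 16.8% of promoter peaks. With 200 bp on each side all 6 did, those of Cp190 and the first start of BEAF-32 included, with 50.3% of promoter peaks. A match is a description of the letters and does not show binding of BEAF-32.

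The full DRE lay in none of the 6 windows, in 4.23% of promoter peak windows and in 6.45% of windows at starts. Within 200 bp of the summit it occurred at Cp190 and at the first start of BEAF-32. Windows of that size held it at 8.53% of promoter peaks and 7.65% of starts. The Cp190 DRE straddles the annotated start at position 15275241, as shown in the site printed for that start, with a further CGATA a few bases upstream. At BEAF-32 it lay 140 bp upstream of the first-start summit. The core of Motif 1, GGTCACAC, which is bound by M1BP at housekeeping promoters, was in none of the windows (2.86% of promoter peaks and 5.68% of starts). GAGAG, bound by GAGA factor, was also in none, against 21.1% of promoter peak windows. With 200 bp on each side 1 window held GAGAG, that of Dref, with 43.9% of promoter peaks.

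**Figure D5:**
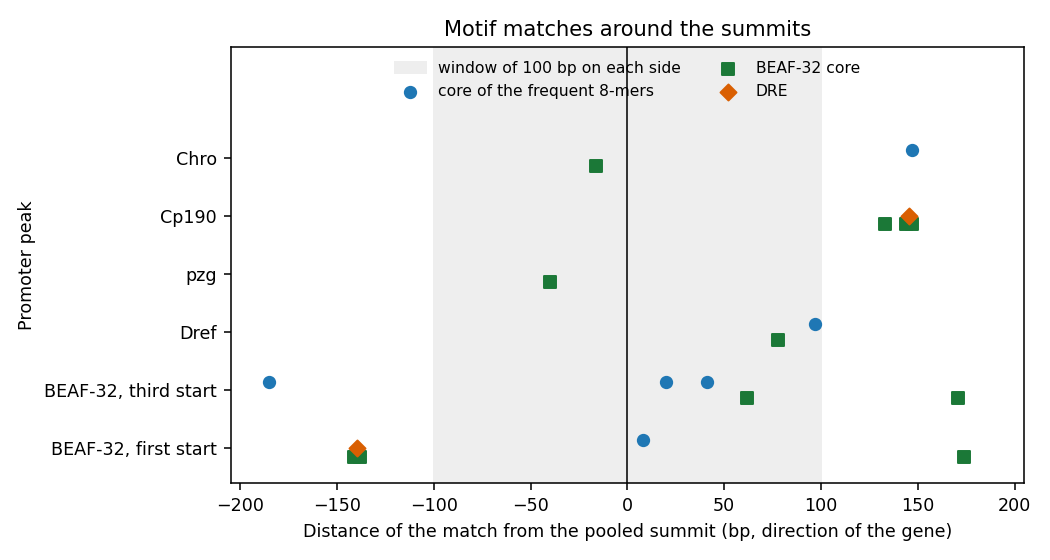
Position (bp, in the direction of each gene) of motif matches within 200 bp of the 6 pooled summits; circles are CACTG, squares the CGATA core and diamonds the DRE, and the shaded band is the window of 100 bp on each side. Dref and both BEAF-32 summits have CACTG inside the band, whereas Chro, Cp190 and pzg do not, and the DRE lies outside the band at Cp190 and the first start of BEAF-32.

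Genes for partners of these proteins mostly had no peak, as was so for most protein-coding genes. Of 13 listed names 11 matched a gene symbol, and 1 of these had a reproducible summit within 500 bp of a start (9.09%, against 12.8% of all protein-coding genes). This was M1BP, with a pooled signal of 241 (113 in replicate 1 and 123 in replicate 2) and a summit 320 bp upstream. No summit lay that close for JIL-1, a kinase of interband chromatin that binds Chromator, Trf2, which acts with DREF in core promoter recognition, E(bx), Iswi, Nurf-38 and Caf1-55 of the NURF remodelling complex, Ibf1 and Ibf2, which act with CP190, or Map60 and east. The nearest summit to a start of east, a gene for a protein of the nuclear interior, was 562 bp away.

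Of 15 other boundary and architectural protein genes 3 had a reproducible peak at a start (20%, with 12.8% of all protein-coding genes). Trl, which encodes GAGA factor, had a pooled signal of 174 (115 in replicate 1 and 57.8 in replicate 2). Cap-H2, which encodes a condensin II subunit, had 125 (68.9 and 48.3 in the same order) and CTCF had 88.0 (52.9 and 31.4). The 12 without one were su(Hw), mod(mdg4), pita, ZIPIC, dwg, Elba1, Elba2, insv, Clamp, vtd, SMC1 and Nipped-B. All 3 signals lay below that of Cp190, but not below those of every member. Trl lay above pzg (149), and both Trl and Cap-H2 lay above Dref (119) and both BEAF-32 peaks (112 and 109). CTCF lay below every member peak.

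Genes of DNA replication and the cell cycle that are known for regulation by DREF had a peak in 3 of 16 cases (18.8%, with 12.8% of all protein-coding genes). Mcm2, which encodes a subunit of the replicative helicase, had a pooled signal of 168 (85.9 in replicate 1 and 80.0 in replicate 2), with its summit 71 bp upstream. RPA1, which encodes a single-strand DNA-binding protein, lies beside Mcm2 and was counted through the same peak, 448 bp from its start. Prim1, a primase subunit gene, had 87.3 (54.3 and 36.0 in the same order). PCNA, PolA1, Orc1, Orc2, Orc5, Mcm3, Mcm5, Mcm6, Mcm7, E2f1, CycA, stg and RnrL had no summit within 500 bp of a start.

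The promoter peaks nearest to each member in the log2 signals of the 2 replicates belonged to genes of varied kinds. Likeness was the Euclidean distance over these log2 signals, and it was measured against the promoter peaks of 1352 or 1353 other protein-coding genes. Nearest to Chro were px, a wing vein gene, and ph-p, a Polycomb group gene, at distances of 0.12 each. CG11309 and CG3961 were nearest to Cp190, by its stronger entry of replicate 2 (0.066 and 0.11). For pzg they were Ice1 and the ribosomal protein gene RpL37A (0.032 and 0.037), and for Dref they were Fancm and the kinase gene Tak1 (0.037 and 0.039). For BEAF-32, by its third-start peak, they were the septin gene pnut and the peroxisomal import gene Pex13 (0.036 and 0.039).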

How the data were processed

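Peak lists on dm6 were used. According to the readme that the authors deposited, peaks were called per replicate and on the pooled replicates, each time with a control alignment, and the reproducible set was derived from those lists with IDR. Which aligner, peak caller and IDR threshold were used is not given in the sources used here. A peak carries the authors' signal value, on a scale not stated, and a deposited −log10 q-value. Lists that entered the IDR step hold 30000 entries each, background included. No read counts were used, so depth is unknown, and no interval is given.

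Gene models were those of Ensembl release 115 (BDGP 6.54) on the major arms, without transposable elements, and sequence came from the RefSeq Release 6 genome, the same assembly. Peak positions are given 1-based. The summit is the deposited start plus the deposited offset. Replicate values are those of the strongest entry overlapping the pooled peak, except at the weaker BEAF-32 entry, where the entry holding its summit was used. Most entries have a fixed width, whose summit is their centre. Motifs were counted in windows of 100 bp on each side of a summit. Older gene symbols were matched through RefSeq synonyms, which resolved 3 names, and Skeletor and Mtor matched none. No test was made.

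The members, lists and motifs were chosen with earlier results of these data known. Named genes are the 5 members, genes with a start within 500 bp of their summits, listed genes with a promoter peak, and the 2 protein-coding genes per member nearest in replicate log2 signals. Listed genes without a peak, and the gene at the weaker pzg entry, are named to complete a count. Alternatives were windows of 200 and 1000 bp, overlap in place of summit, the 1657 stronger peaks, each replicate alone, canonical starts, other matching of entries, and motif windows of 50 and 200 bp. The distance to a start and a search for CACTG on both strands were tested on simulated data, and the matching of peaks was not. Computation used pandas 2.3.3, numpy 2.4.6 and scipy 1.17.1 under Python 3.11.15, with plots from matplotlib 3.10.9.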

Additional observations from a re-analysis of the deposited data

How the results depend on the processing

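All 5 genes had a promoter peak with windows of 200 and 1000 bp, by any overlap, and from the 3314 strongest entries of each replicate alone (without replicate 1 or without replicate 2, 5 each). Among the 1657 stronger reproducible peaks 3 did (Chro, Cp190 and pzg). With canonical starts only, chosen after seeing the data, 4 did, since that of Cp190 is 597 bp away. With 200 bp the partner list had 0 genes with a peak and the replication list 1, and with 1000 bp the partner list had 2, since east then counts. The share of all protein-coding genes with a promoter peak is given only for summits within 500 bp. Counts at the other settings therefore have no share beside them. Neither of the 2 weaker pooled entries had an entry holding its summit in both replicates (0, a match chosen after seeing the data). From the canonical BEAF-32 start, the third-start summit lies 802 bp downstream instead of upstream. Replicate ranks of the 6 peaks are given above. No paired analysis was possible because the series has 1 group.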

Other observations

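The nearest other reproducible summit was 15083 bp from that of Chro (at CG33169, signal 208) and 5672 bp from that of Cp190 (at Tm1, a tropomyosin gene, signal 154). It was 10116 bp from that of Dref (at CG4658 and CG5846, signal 178) and 18624 bp from that of pzg (at CG11309 and CG7632, signal 380). The peak at CG11309 is the same one that lay nearest to Cp190 in its replicate signals. These distances were read after the other values had been seen and were not set against those of other promoters.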
